A study of Mus musculus with 26 samples.

Results

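The locus of Myf5 and Myf6 on mouse chromosome 10 was read across the peak lists of C2C12 muscle cells as all peaks that touched 106.9 to 107.1 Mb of build mm9, whatever their score. It held 113 of the 762764 peaks that the 16 lists place on assembled chromosomes, 99 from ATAC-seq, 10 from ChIRP-seq and 4 from ChIP-seq of SMC3. The genes themselves lie near 106.92 to 106.932 Mb, and the sequence above them, up to the end of the window, is the far upstream part that holds their enhancers. The stretch below 106.92 Mb lies on the downstream side of Myf5, which RefSeq lists on the minus strand. By RefSeq gene order Lin7a, Myf5, Myf6 and Ptprq follow each other, so the lower end of the gene interval is the Myf5 side and the upper end the Myf6 side. No mm9 gene model was used, so exons, introns and start sites were not analysed here.

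Myf5 and Myf6 (also called Mrf4) encode transcription factors of the MyoD family, which bind E-box sequences as partners of E proteins and set muscle precursor cells on the path to muscle. Myf5 acts early, in determination and in proliferating myoblasts, and Myf6 is known mainly from differentiating fibres and adult muscle. The pair share an array of enhancers scattered over a long stretch upstream that reaches into the neighbouring gene Ptprq, a receptor-type phosphatase gene best known from the inner ear, and each enhancer serves a different muscle territory or stage. SMC3 is a core subunit of cohesin, the ring complex that holds chromatin loops, often at sites bound by CTCF. DRR is the distal regulatory region upstream of Myod1, an enhancer that is itself transcribed into RNA.

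C2C12 is an established mouse myoblast line, and each group had 2 libraries. SMC3 was mapped in growing myoblasts (20% serum), in myotubes formed in 2% horse serum, for which the labels give no transfection, and in myotubes transfected with siDRR, an siRNA against the DRR RNA. ATAC-seq, which marks accessible chromatin, covered myotubes after 3 transfections, namely control, siDRR and siSmc3 (an siRNA against Smc3). ChIRP-seq captured the DRR RNA and its attached chromatin from myotubes with 2 probe pools, each a separate set of probes. Whether replicates came from separate cultures is not in the labels, so their spread may be technical, and the level of any RNA, including Myf5 and Myf6, was not analysed here.

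The RefSeq promoter table held an entry for 1 of the 2 genes, Myf5. The 250 bases before its listed start are shown as the sequence on which E-box letters could be searched next to a member gene (build GRCm38.p6, minus strand, chr10:107486135-107486384, a build other than that of the peaks, so no peak is placed on it).

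Myf5 upstream: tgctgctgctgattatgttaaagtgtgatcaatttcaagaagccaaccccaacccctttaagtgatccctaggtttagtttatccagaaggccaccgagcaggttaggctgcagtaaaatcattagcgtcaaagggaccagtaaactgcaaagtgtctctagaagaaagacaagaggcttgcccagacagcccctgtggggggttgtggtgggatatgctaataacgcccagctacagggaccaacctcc

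The E-box letters CANNTG, which read the same on both strands and include CAGCTG, occurred 0 times in this window, so no letters are capitalised. Among 32851 RefSeq promoters of the same length 66.2% held CANNTG and 13.0% held CAGCTG. The result says only that these letters are not in these 250 bases.

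A rank percentile here is the share of peaks of the same list whose deposited score is no higher, so the top peak has 100. Overlapping peaks of the lists of an assay were joined into sites, 32 for ATAC, 3 for SMC3 and 9 for ChIRP, the last from summits widened by 250 bp on each side. From one group to another a site is lost when 2 of 2 libraries called it before and 0 of 2 after, and gained in the opposite case. Lists held 58137 to 103055 peaks for ATAC, 8384 to 33154 for SMC3 and 3765 to 68233 for ChIRP. No list gives read counts, so depth is unknown, a peak that is not called is not shown to be absent, and ranks from lists of different length show no change of signal.

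The map of all 16 lists shows the layout in which the results below are read.

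**Figure D1:**
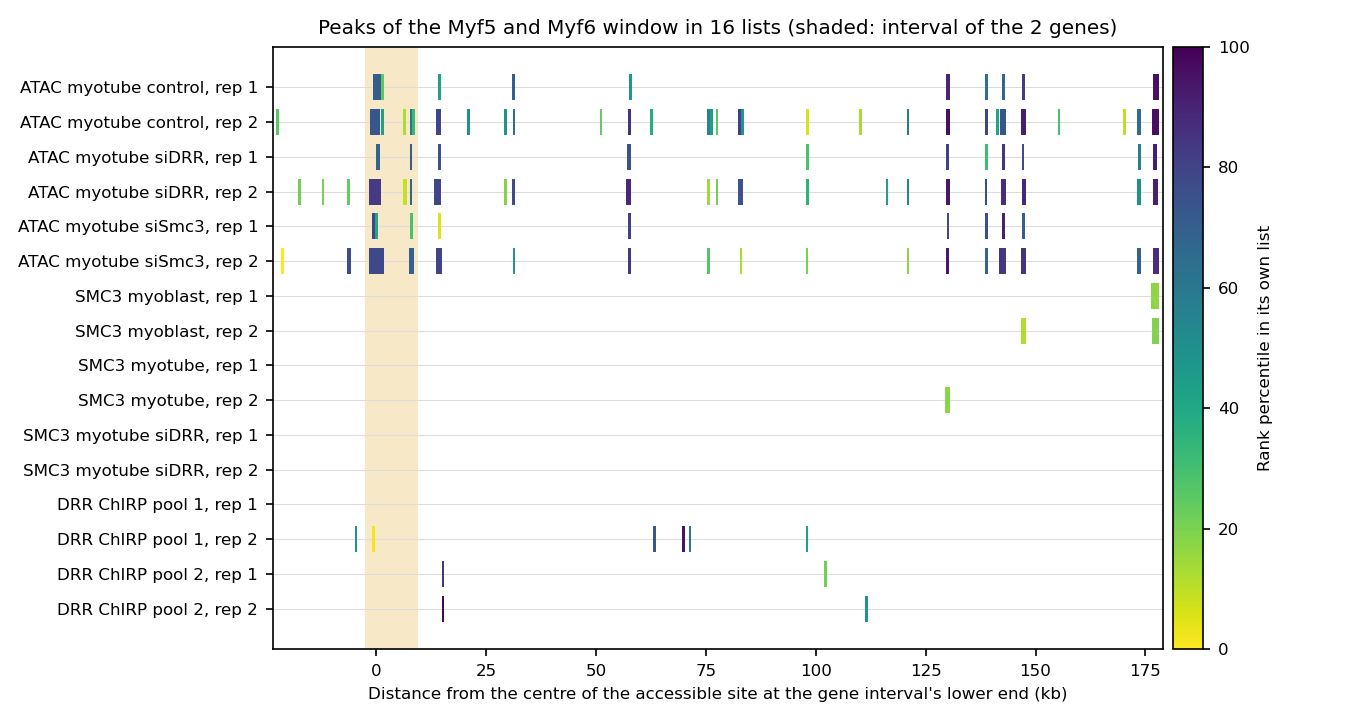
Peaks of the window in each list, by distance in kb from the centre of the accessible site at the lower end of the gene interval (shaded). Bars are peaks, widened to at least 0.6 kb to be visible, and colour gives the rank percentile. The ATAC rows hold 9 to 30 peaks each, and the 4 SMC3 peaks all lie at about 130 kb or farther from the gene interval site.

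Cohesin was nearly missing from the window in the deposited calls. The 6 SMC3 lists held 4 peaks there: 1 in myoblast replicate 1, 2 in myoblast replicate 2, 0 in myotube replicate 1, 1 in myotube replicate 2 and 0 in both siDRR libraries. None lay in or near the gene interval. All were weak, at rank percentiles of 11.8 to 19.0. The median 200 kb window of the genome held 1 peak in each myoblast list. In the myotube lists, and likewise in the siDRR lists, it held 0 in replicate 1 and 1 in replicate 2. Windows without a peak made up 52.0% and 42.9% in the myotube lists and 64.0% and 45.0% in the siDRR lists. The low number is thus not unusual by itself.

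The genes sat inside a long stretch without an SMC3 peak. It measured 204266 and 174845 bp in the myoblast libraries, 259800 and 171383 bp in the myotube libraries and 259873 and 246526 bp with siDRR. Between neighbouring peaks of the same lists the median gap was 26142 bp in myoblast replicate 2, the longest list, and 109785 bp in siDRR replicate 1, the shortest. Gaps at least as long as the one over the genes made up 6.65% to 12.4% of all gaps in 5 of the lists and 25.0% in siDRR replicate 1. By length such gaps held 52.5% to 78.6% of all sequence between peaks in the 6 lists, so most positions of the genome outside peaks lie in a gap this long. Myotubes overlapped with both other groups in the length of the stretch, while it was longer in both siDRR libraries, which have shorter lists, than in both myoblast libraries.

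Outside the window, strong SMC3 sites flanked the locus in every library. The site at 106879351 to 106880798, which ended 19202 bp below the window, was called in all 6 lists at percentiles of 85.8 to 97.7. The site at 107140592 to 107142364, 40592 bp above the window, was also called in all 6, at 88.3 to 95.2. Both sites were thus called at either stage and with siDRR. The share of SMC3 sites over the genome that all 6 lists call is not given here. A weaker site between them, at 106893494 to 106894505, was called in the myoblast libraries at 21.3 and 2.57, had no peak in the myotube libraries and was called in siDRR replicate 2 at 20.4.

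Inside the window the most distal SMC3 site was the one that differed between stages. It lay at 107098772 to 107100806, with its centre 177 kb from the gene interval site. Myoblast replicate 1 called it at 107098772 to 107100683 with a score of 67.79 (percentile 17.1), and myoblast replicate 2 at 107099051 to 107100806 with 71.29 (percentile 19.0). No myotube and no siDRR library called it. It was thus lost from myoblast to myotube, 1 of the 3 sites called in either group, where 12.8% of all SMC3 sites of the genome were lost and 0.79% gained. With lists cut to equal length (15056 peaks) neither myoblast library called it either, so the loss ended.

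The other pair of SMC3 sites appeared in a single library each. The site at 107069264 to 107070352 was called in myoblast replicate 2 alone, with a score of 61.77 (percentile 11.8). The site at 107051973 to 107053202 was called in myotube replicate 2 alone, with 69.96 (percentile 18.1). From myotube to siDRR no site was lost or gained, against 2.93% lost and 0.128% gained over the genome, since no site of the window was called in both myotube libraries and none in any siDRR library.

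All 3 SMC3 sites lay on accessible chromatin of myotubes. Over the genome 77.4% of SMC3 sites touched an ATAC site, so this is near the background. Read the other way, 3 of the 32 ATAC sites touched an SMC3 site, against 16.3% in the genome. Of the 7 ATAC sites called in all 6 lists 2 did, against 57.8% of such sites in the genome, a difference that was not tested. The 3 accessible sites with SMC3 were those that took the first 3 places by score in both control lists.

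**Figure D2:**
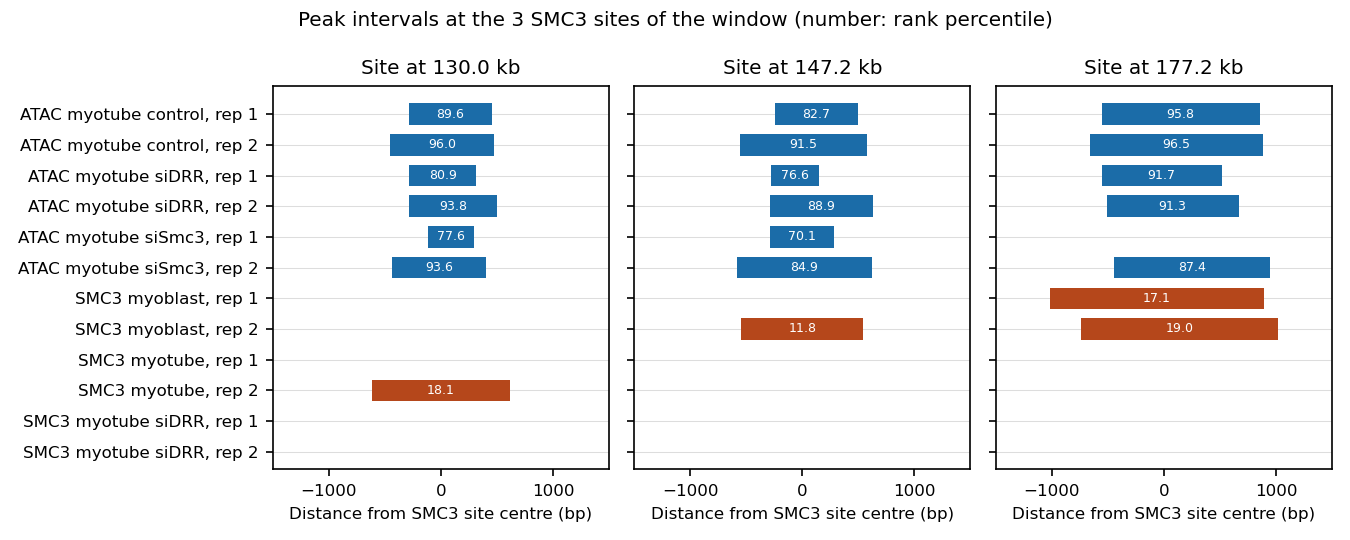
ATAC (blue) and SMC3 (orange) peak intervals in 12 lists at the 3 SMC3 sites, by distance in bp from the SMC3 site centre, and numbers give rank percentiles. ATAC peaks stand in all 6 lists at the sites at 130.0 and 147.2 kb and in 5 at 177.2 kb, whereas each SMC3 interval is called in 1 or 2 libraries at percentiles of 11.8 to 19.0.

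Accessibility, unlike cohesin, was dense across the window. Control myotubes had 10 and 30 ATAC peaks in replicates 1 and 2, siDRR myotubes 11 and 22, and siSmc3 myotubes 9 and 17. Peaks covered 3.94% and 9.61% of the window in control, 3.45% and 8.77% with siDRR, and 2.31% and 7.49% with siSmc3. By midpoints, control replicate 2 had more peaks here than in 99.9% of 13217 windows of 200 kb, and siSmc3 replicate 1 more than in 69.6%, at medians of 6 and 5 peaks a window.

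Per 10000 peaks of the list the window held 2.37 ± 0.915 ATAC peaks in control, 1.90 ± 0.464 with siDRR and 1.38 ± 0.380 with siSmc3 (SD, n = 2 each). In two-sided exact permutation tests over libraries p was 0.667 for siDRR and 0.333 for siSmc3 against control, and 0.889 for both after Benjamini-Hochberg adjustment over 4 comparisons. The smallest p that 2 against 2 libraries allow is 0.333, so no difference could pass. Both tests use the same control libraries. The siSmc3 values (1.11 and 1.65) lay below the control values (1.72 and 3.01), but their nearest values were closer than the spread within either group, and they overlapped with lists cut to equal length (p = 0.667 in the same exact test). With the better-scoring 50% of each list they stayed apart (exact permutation p = 0.333). The siDRR values (1.58 and 2.23) overlapped with control.

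For SMC3 the window held 0.463 ± 0.198 peaks per 10000 in myoblasts, 0.187 ± 0.264 in myotubes and 0 in both siDRR libraries (SD, n = 2 each). The two-sided exact permutation p was 0.667 for myotube against myoblast and 1 for siDRR against myotube, with adjusted values of 0.889 and 1.

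**Figure D3:**
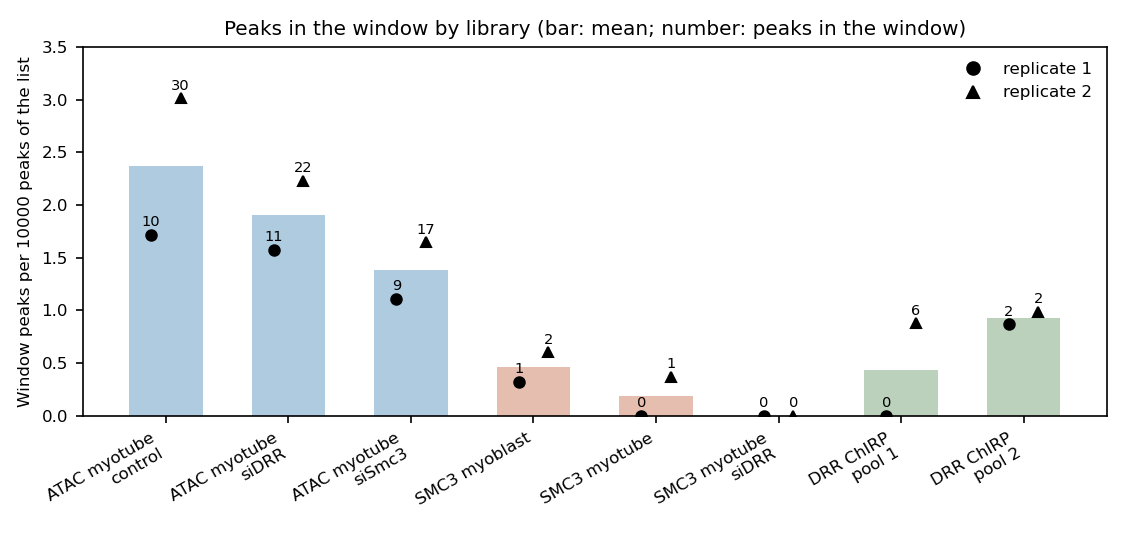
Window peaks per 10000 peaks of the list (y axis) in the 8 groups. Bars are means of 2 libraries, symbols single libraries, and numbers the peaks in the window. In every ATAC group replicate 2 stands above replicate 1, and the lowest ATAC library, at 1.11, stands above the SMC3 and ChIRP libraries.

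No ATAC site of the window was lost or gained in either knockdown. Under siDRR 0 of 31 sites called in either group were lost and 0 gained, where the genome gave 1.33% lost and 1.45% gained. Under siSmc3 0 of 29 were lost and 0 gained, against 1.70% and 1.95%. At such shares a count of 0 among about 30 sites differs little from the background. The control libraries had 9 sites in common, of which 8 recurred in both siDRR libraries and 7 in both siSmc3 libraries. The share of such recurrence over the genome is not given here, so these counts show no trait of the window.

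In every group the replicate 2 list called more sites than the replicate 1 list. All 32 sites were called in a replicate 2 list, and 20 of them in replicate 2 lists only, against 39.8% of sites in the genome. No site was called in replicate 1 lists only, against 31.8% in the genome. The replicate 2 lists were longer, but with all lists cut to 58137 peaks the sites called were still 9, 11 and 7 in the replicate 1 lists of control, siDRR and siSmc3 and 18, 14 and 12 in those of replicate 2. What separates the replicate numbers is not given in the labels.

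Of the 32 ATAC sites 7 were called in all 6 lists (9.74% in the genome) and 13 in 1 list (60.1% in the genome). Of the 7 common sites 2 lay by the genes, 1 midway and 4 far upstream. Gaps of 41932 and 71457 bp separated the sites at 106935737 to 106937432, 106979365 to 106980679 and 107052137 to 107053085 from each other. The last of these opened a cluster of 4 common sites between 107052137 and 107070433, with gaps of 7963, 2652 and 3351 bp. Sites called in 1 list were narrow, at 247 to 534 bp, with percentiles up to 49.2.

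At the Myf5 side of the gene interval the widest site of the window, 3458 bp at 106920873 to 106924330, was accessible in all 6 lists. Its percentiles were 71.3 and 73.1 in control, 68.8 and 82.6 with siDRR, and 79.8 and 78.3 with siSmc3. The siDRR values overlapped with control, and both siSmc3 values lay above both control values. By score, however, the siSmc3 libraries (74.04 and 228.31) stood on either side of the control libraries (102.01 and 181.4). The lists differ in length, and the order of groups was not tested. The extent of the calls within the site did vary. In control a second peak stood above the main one, at 106923566 to 106924330 in replicate 1 (score 36.99) and at 106923522 to 106924270 in replicate 2 (59.55). With siDRR the calls ended at 106923338 and 106923526, so neither library called that upper stretch beyond its first bases. With siSmc3 they ended at 106922901 in replicate 1 and at 106924223 in replicate 2. This comparison of ends was chosen after the values were seen, and the rule for lost sites did not register it because the peaks join into 1 site.

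At the Myf6 side the site at 106930025 to 106931244 was called in 5 lists. Control replicate 1 had no peak there and control replicate 2 had 60.6. The siDRR libraries stood at 70.8 and 68.2, and the siSmc3 libraries at 29.3 and 69.1. Between both gene sites a weak site at 106928618 to 106929559 was called in control replicate 2 (12.2) and siDRR replicate 2 (8.68) only.

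The nearest upstream common site, at 106935737 to 106937432, spread most in rank. It stood at 43.6 and 78.9 in control, 75.6 and 78.9 with siDRR, and 4.93 and 80.0 with siSmc3. The 3 replicate 2 lists lay within 78.9 to 80.0, so all of the spread came from replicate 1. At equal list length siSmc3 replicate 1 no longer called it.

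Further up, the site at 106953432 to 106954158 was called in both control libraries (70.3 and 64.6) and in replicate 2 alone of siDRR (77.6) and siSmc3 (47.3). With the better-scoring 50% of each list it counted as lost under siSmc3, the only such site. At equal list length siSmc3 replicate 2 still called it, so it did not count as lost.

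The site at 106979365 to 106980679, 57.4 kb from the gene interval site, was called in all 6 lists. Control stood at 46.6 and 84.9, siDRR at 74.7 and 88.5, and siSmc3 at 80.7 and 84.4. Control replicate 1 was the lowest of the 6, and the groups overlapped.

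The distal cluster held the best of the common sites. At 107052137 to 107053085, the site that carried SMC3 in myotube replicate 2, percentiles were 89.6 and 96.0 in control, 80.9 and 93.8 with siDRR, and 77.6 and 93.6 with siSmc3. At 107069226 to 107070433, the site that carried SMC3 in myoblast replicate 2, they were 82.7 and 91.5, 76.6 and 88.9, and 70.1 and 84.9 in the same order. At both sites each knockdown library ranked below the control of the same number, but the groups overlapped and the lists differ in length.

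The neighbouring site at 107064366 to 107065874 had the opposite order of groups. It stood at 66.9 and 73.2 in control, 84.8 and 87.2 with siDRR, and 91.0 and 84.3 with siSmc3. Here every knockdown library ranked above both control libraries by percentile. The scores overlapped, however. Replicate 1 of siDRR (152.93) and of siSmc3 (128.83) lay between the control libraries (86.66 and 182.76). By order of score among the window sites of each list the site was number 6 of 9 and 8 of 27 in control, 2 of 11 and 5 of 22 with siDRR, and 1 of 8 and 5 of 17 with siSmc3. The lists differ in length, the site was picked out after its values were seen, and no test over libraries could pass. The fourth site of the cluster, at 107061049 to 107061713, stood at 62.9 and 79.6 in control, 31.0 and 75.7 with siDRR, and 75.3 and 67.1 with siSmc3, with overlap of all groups.

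The best-ranked accessible site of the window was the most distal, at 107099129 to 107100734, where myoblasts had SMC3. It stood at 95.8 and 96.5 in control (scores 360.32 and 699.49), at 91.7 and 91.3 with siDRR (235.05 and 451.88), and at 87.4 in siSmc3 replicate 2 (355.73). The siSmc3 replicate 1 list had no peak there. All knockdown percentiles lay below both control percentiles, but the score of siDRR replicate 2 lay above that of control replicate 1. The lists differ in length, and no test over libraries could pass. The site took first place in both control lists, first and second place in the siDRR lists and second place in siSmc3 replicate 2. Accessibility was measured only in myotubes, so the myoblast SMC3 peaks have no ATAC library of their own stage.

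Other sites with 4 lists lay at 107095678 to 107096657 (no peak in either replicate 1 of control and siSmc3, and 50.1 to 69.0 elsewhere) and at 107020465 to 107020939. The latter was weak, with no peak in the same pair of lists, 5.81 in control replicate 2, 28.8 and 35.7 with siDRR, and 20.9 in siSmc3 replicate 2. Both siDRR percentiles lay above the other 2, but the score of siDRR replicate 1 (35.85) lay below that of siSmc3 replicate 2 (38.58). All scores at this site, 31.5 to 47.66, were near the lowest score of the ATAC lists (30), and the lists differ in length.

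**Figure D4:**
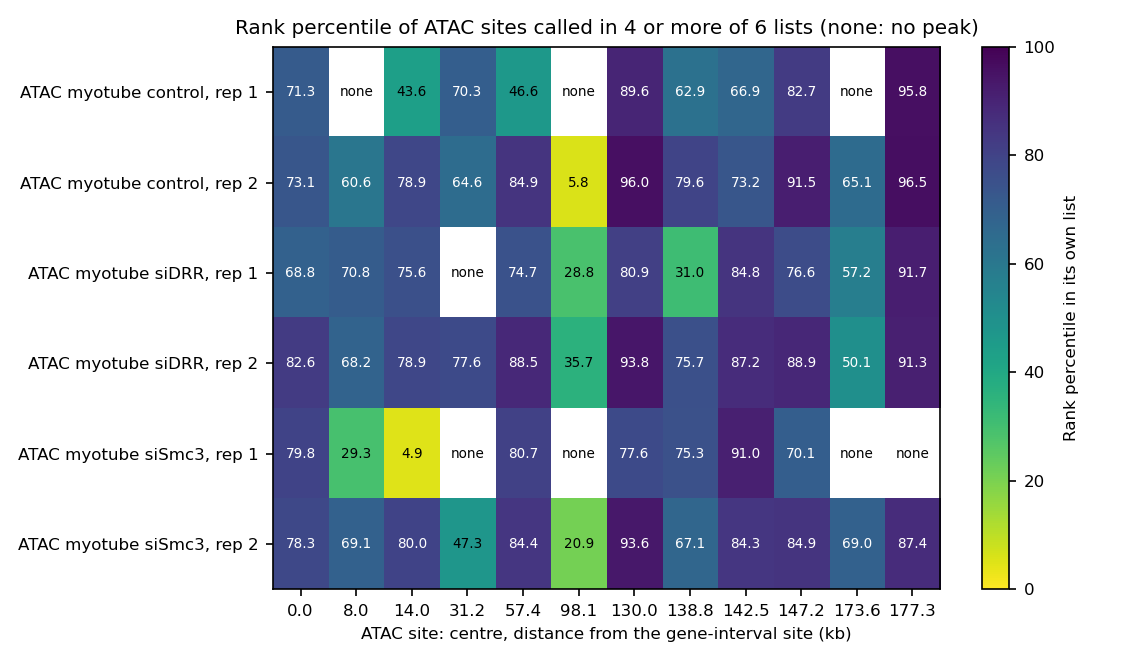
Rank percentile of the 12 ATAC sites called in 4 or more of 6 lists (columns, by distance in kb from the gene interval site) in each ATAC list (rows). The site at 142.5 kb stands higher in all 4 knockdown lists than in the control lists, and the site at 177.3 kb has no peak in siSmc3 replicate 1.

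In each ChIRP list the window held as many DRR summits as the median window of its length, or slightly more. Pool 1 had 0 summits in replicate 1 and 6 in replicate 2, and pool 2 had 2 in each replicate. The median window of 200 kb held 0 and 5 summits in the pool 1 lists and 1 in each pool 2 list. The 10 summits formed 9 sites, of which 0 were found by both pools, where 1.18% of ChIRP sites in the genome were. Values for the LacZ probe and input samples were not analysed here, so no background stands beside these summits.

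A single site recurred between replicates. Pool 2 replicate 1 had a summit at 106937742 (score 12.3, percentile 84.3) and replicate 2 at 106937768 (score 39.9, percentile 98.7). They lay 310 and 336 bp above the edge of the accessible site at 106935737 to 106937432, the nearest common site upstream of the genes, and did not touch it at 250 bp of widening. With summits widened by 500 bp they did. In the genome 41.1% of pool 2 sites were called in both its libraries, so 1 of 3 here is near the background. Neither pool 1 library called the site.

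The pool 1 summits came from replicate 2 alone, so 0 of 6 pool 1 sites recurred between replicates, against 5.3% in the genome. The pool 1 list of replicate 1 held 3765 summits and that of replicate 2 held 68233, so few sites could recur anywhere. The one inside the Myf5-side accessible site, at 106921985, was among the weakest of its list (percentile 1.85). The best, at 106992474 (percentile 95.2), lay 5412 bp from the nearest ATAC site. Another touched the weak accessible site at 107020465 to 107020939, with its summit at 107020598 (percentile 42.6). The others lay at 106917941, 106985824 and 106993930, at percentiles of 49.3, 72.7 and 60.5, and none was inside an ATAC site.

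Pool 2 had a further summit in each library, at 107024754 in replicate 1 (21.6) and at 107034195 in replicate 2 (48.4), both outside accessible sites. Over the window 2 of 9 ChIRP sites touched an ATAC site, where 12% did over the genome, and 0 touched an SMC3 site, where 4.38% did. The nearest summit to an SMC3 site was that at 107034195, at 17778 bp. None of the 3 accessible sites with SMC3 had a ChIRP summit. Of the 32 ATAC sites 2 touched a ChIRP site, against 5.05% in the genome.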

How the data were processed

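Peak lists of 16 samples were used; the other 10 (inputs and LacZ probe controls) were not analysed here. Each list gives 1 deposited score per peak, made by the authors' peak caller on a scale that is not stated. Per the submitters' processing notes the build is mm9, the named peak callers are MACS 1.4.2 and MACS2, the aligners Bowtie2 2.2.4 and Bowtie 1.1.1, and cutadapt 1.12 is listed too, none with a role. Calling threshold, controls and ATAC read shift: not given in the sources used here. There is 1 list per library.

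Starts were made 1-based, and the mitochondrial chromosome and unplaced contigs left out. Sites were merged over the lists of an assay at 1 bp of overlap. Calls have no test; peak numbers were compared by exact permutation. The merging and permutation were tested on simulated data. Python 3.11.15 and pandas 2.3.3 were used. Values in every list are given for SMC3 and ChIRP sites, and for ATAC sites by the gene interval, with SMC3 or ChIRP, lost or gained, or best in rank; ATAC sites called in 4 or more lists were added. Enhancers by distance from the Myf5 start, and the Myod1 and Myog windows, needed mm9 positions and were not analysed here. The window and lists were chosen with earlier results of these data known.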

Additional observations from a re-analysis of the deposited data

How the results depend on the processing

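Of 97 recomputed values, 26 moved and none reversed. The other 71 are differences that kept their direction, whatever their size, and counts within 1.5 times. With the better-scoring 50% of each list, or lists cut to equal length, the differences in SMC3 peaks per 10000 (main values -0.28 from myoblast to myotube and -0.19 from myotube to siDRR) were 0, the SMC3 sites lost from myoblast to myotube were 0, and the SMC3 and ChIRP sites that touched an ATAC site were 0 each, since the calls were too weak for the shorter lists. The difference in ATAC peaks per 10000 from control to siDRR (-0.46) was -0.0032 with the better-scoring 50% and -0.43 at equal length, and -0.78 to -0.15 leaving out a replicate. That from control to siSmc3 (-0.99) was -0.80, -0.86 and -1.36 to -0.61 in the same settings. With the better-scoring 50%, 1 ATAC site was lost under siSmc3, and at equal length 0. With summits widened by 500 bp, 4 ChIRP sites touched an ATAC site. Leaving out either replicate turns the rule for lost and gained sites into a comparison of 2 lists. SMC3 sites lost were then 1 to 2 and gained 0 to 1 from myoblast to myotube, and lost 0 to 1 from myotube to siDRR, where the difference in peaks was -0.37 to 0. ATAC sites lost were 2 to 9 and gained 3 to 4 under siDRR, and lost 3 to 12 and gained 1 to 2 under siSmc3. SMC3 and ChIRP sites that touched an ATAC site were 1 to 3 and 0 to 2. Permuting within replicate numbers (the replicate block) left the differences at -0.28, -0.19, -0.46 and -0.99 with exact permutation p of 0.5, 1, 0.5 and 0.5, where 0.5 is the smallest possible. Within-group differences between replicates 1 and 2 correlated over sites between groups at 0.0422 to 0.188 for SMC3. For ATAC the range was 0.138 to 0.161, and with 2 replicate numbers this does not establish a pairing. Merging over 4 lists, merging within 500 bp and the midpoint rule moved no value past these limits. Without read counts, the depth behind a missing call is unknown.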
